A study of Pinellia ternata with 12 samples.

Results

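Names of miRNA families tied in other plants to the small RNA machinery were examined in leaves of *Pinellia ternata*. This is a medicinal herb of the arum family, sampled before and after heat stress. The names were all those of the miRNA table whose family was miR162, miR168, miR838 or miR1515, which gave 27 of the 1597 names listed. 6 of them were miR162 names, 17 were miR168 names, 3 were miR838 names and 1 was a miR1515 name. The name before the hyphen is the plant in which the sequence was first listed (ath for Arabidopsis, osa for rice, nta for tobacco), so that several names can stand for near-identical sequences of a single *P. ternata* miRNA.

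Plant miRNAs are cut from a hairpin precursor by the nuclease DICER-LIKE1 (DCL1), and the strand that is kept is loaded into an ARGONAUTE protein, mostly AGO1, which slices or represses matching mRNAs. The machinery is under the control of its own products. In Arabidopsis, miR162 cuts the mRNA of DCL1, miR168 cuts the mRNA of AGO1, and miR838 arises from an intron of the DCL1 transcript. In soybean, miR1515 acts on the mRNA of DCL2, which makes small interfering RNAs from viral and other double-stranded RNA. The 5p and 3p strands are the left and right arms of the hairpin, and for miR168 the 5p strand is the guide that acts on AGO1, while the guide of miR162 is its 3p strand.

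Seedlings were raised from tubers in an incubator at 25 ℃ with long days. The control group (C) was sampled on day 0 without heat, and the heat group (G) on day 1 after 24 h at 40 ℃. All plants were of 1 species, the tissue was whole leaf, and 3 small RNA libraries and 3 RNA-seq libraries were made for each group as biological replicates. The labels mark every library with the same heat treatment tag, and each library was therefore placed by its title, its source and its day. Because heat was applied for a day, the day of sampling and the heat cannot be told apart. Whether the small RNA and RNA-seq libraries of the same number came from the same leaves is not given in the sources used here.

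The deposited miRNA values were RPM, the reads of a name scaled to a fixed total of the reads assigned to listed miRNAs, and whole reads were recovered from them. The libraries held 871814 to 2039055 such reads in the control group and 479324 to 1475482 in the heat group, so that 1 read stood for 0.490 to 2.09 RPM. Of the clean small RNA reads, listed miRNAs took 3.19% in heat replicate 2 and 5.26% to 7.97% in the other libraries. Control replicate 2 stood apart. Of the 1169 names with at least 50 reads, 55 (4.7%) had at least 90% of their summed RPM in that library, against 0 to 3 names for each of the other 5 libraries. These 55 names took 27.5% of the reads in control replicate 2 and 0.0496% to 0.695% of those elsewhere, and 4 of them were members of the families studied here (ath-miR162a-3p, bdi-miR162, zma-miR162-3p and csi-miR1515). The results for miR162 and miR1515, which rest on control replicate 2, are therefore given with and without it.

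The sequences on which the results turn are shown 5′ to 3′ as the study's list of known miRNAs gives them, with the seed (bases 2 to 8) in capitals. The first set holds the miR168 guide and its variants, which differ at few bases, followed by the 24-base aau-miR168, the 3p strands, the leading miR162 and miR1515 names, and a miR838 name.
ath-miR168a-5p: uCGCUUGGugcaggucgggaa
nta-miR168a: uCGCUUGGugcaggucgggac
bna-miR168b: uCGCUUGGugcaggucgagaa
mtr-miR168a: uUGCUUGGugcuggucgggaa
osa-miR168b: aGGCUUGGugcagcucgggaa
aau-miR168: aUUCAGUUgaugcaaggcgggauc
sly-miR168a-3p: cCUGCCUUgcaucaacugaau
bra-miR168a-3p: cCCGCCUUguaucaagugaau
bdi-miR168-3p: cCCGCCUUgcaccaagugaau
ath-miR162a-3p: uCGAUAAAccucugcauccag
bdi-miR162: uCGAUAAAccucugcauccgg
csi-miR1515: uCAUUUUUgcgugcaaugaucc
ath-miR838: uUUUCUUCuacuucuugcaca

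The 27 names carried 15 seeds. CGCUUGG was shared by 6 miR168 names with 306933 reads in all 6 libraries together, CCGCCUU by 4 miR168 3p names with 388 reads, CGAUAAA by 4 miR162 names with 1536 reads, and UUUCUUC by 2 miR838 names with 406 reads. The other 11 seeds had 1 name each. Counted from 1 at the 5′ end of ath-miR168a-5p, nta-miR168a carried A21C, bna-miR168b G18A, mtr-miR168a C2U and A12U, and osa-miR168b U1A, C2G and G14C, so that the seed differed in mtr-miR168a and osa-miR168b only among these 4. bdi-miR162 differed from ath-miR162a-3p by A20G. How a read was given to one of several near-identical names is not stated, so the levels of names that differ by 1 base are uncertain.

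aau-miR168, a name from Acacia with 137061 reads, did not read like a miR168 3p strand as written, with 13 mismatches over 20 bases to sly-miR168a-3p. Its reverse complement, shown next without a marked seed, matched that strand over all 21 bases with 1 mismatch, U3C counted on sly-miR168a-3p.
reverse complement of aau-miR168: gaucccgccuugcaucaacugaau
sly-miR168a-3p: ccugccuugcaucaacugaau
Against the 5p guide, aau-miR168 as written had 6 mismatches, where the 3p names had 10 or 11. The 5p guide is itself partly antisense to the 3p strand. Its reverse complement had 5 mismatches to bra-miR168a-3p, beside 2 for that of aau-miR168. With more than 4 mismatches to either arm as written, aau-miR168 is described apart from both, as listed in the orientation antisense to the 3p strand.

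miR168 was the abundant family, and in each of its strands the same heat libraries were low. All 17 names together took 7.35%, 5.93% and 13.1% of the reads assigned to listed miRNAs in control replicates 1 to 3, and 9.39%, 1.34% and 2.65% in heat replicates 1 to 3. Heat replicate 1 thus lay within the control range, while heat replicates 2 and 3 lay below every control library. The 9 names of the 5p strand, the guide toward AGO1, summed to 48590.1, 38038 and 91746 RPM in controls and to 66191, 11445 and 20730.2 RPM under heat. The means were 59458 ± 28455 RPM and 32789 ± 29297 RPM (SD, n = 3 libraries per group), a log2 ratio of -0.86, and the groups overlapped. Relative to the control mean, the heat replicates stood at 1.11, 0.192 and 0.349, a 5.78-fold range within the heat group against a 2.41-fold range among controls. Scaled in the same way to all clean reads, the sum was 2701, 2495 and 4829 RPM in controls and 4352, 366 and 1651 RPM under heat, so the order of the heat libraries did not depend on the total used. Since whole leaves were sampled and RPM is a share, fewer cells that make a miRNA, less of it per cell, and more of other miRNAs cannot be told apart.

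aau-miR168 measured 24581, 20901 and 38937 RPM in controls and 27446, 1961 and 5675 RPM under heat, with means of 28140 ± 9530 and 11694 ± 13768 RPM (SD, n = 3) and a log2 ratio of -1.27. Heat replicate 1 again lay among the controls, and the heat replicates spanned a 14.0-fold range. The 7 names of the 3p strand, the arm that is usually discarded, summed to 281, 341 and 516 RPM in controls and to 268, 41.7 and 81.3 RPM under heat. For this arm the groups did not overlap, but heat replicate 1 lay just under the lowest control. Per clean read the separation was lost, with heat replicate 1 at 17.6 RPM above control replicate 1 at 15.6 RPM. The log2 ratio of the 3p sum was -1.54, and without heat replicate 1 it was -2.63, against -1.89 for the 5p sum and -2.88 for aau-miR168 without that library.

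**Figure D1:**
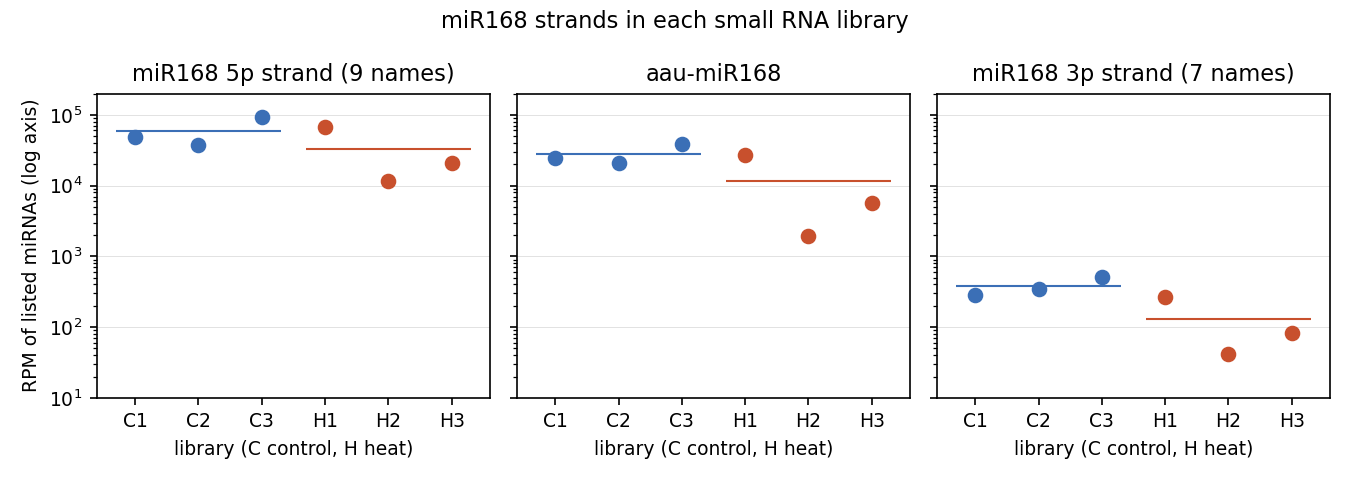
RPM (log axis) of the summed miR168 5p names, of aau-miR168 and of the summed miR168 3p names in each small RNA library, with 1 point per library and a line at the mean of each group of 3. In all 3 panels heat replicate 1 lies near the controls and heat replicates 2 and 3 lie lower, as for the 5p sum with 66191 RPM against 11445 and 20730.2 RPM.

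The RNA-seq libraries, which are not known to come from the same leaves as the small RNA libraries of the same number, also differed within the heat group. In them the levels of 11 unigenes annotated as virus polyproteins were summed, in TPM (a share of all transcripts, corrected for length). The sum was 0.0611, 0.0199 and 0 TPM in controls. Under heat it was 606 TPM in heat replicate 1, 4408.5 TPM in heat replicate 2 and 3419.7 TPM in heat replicate 3. The 11 unigenes were taken from the study's list of unigenes that changed between these samples, so their direction is no independent evidence. Plant viruses are both targets of AGO proteins and sources of proteins that block them. These unigenes were thus high in every heat RNA-seq library and least so in heat replicate 1, and their part in the miR168 levels was not tested. Small RNA heat replicate 2, the lowest for every miR168 strand sum, was also the shallowest small RNA library. Reads assigned to listed miRNAs numbered 1037512, 479324 and 1475482 in heat replicates 1 to 3. Clean reads numbered 15780345, 15007467 and 18523175. The part of depth was not tested either.

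Within the 5p strand, ath-miR168a-5p carried nearly all reads. It was the name of rank 3 of 1597 by mean RPM and measured 47279, 36730.3 and 87350.1 RPM in controls and 62736, 10131 and 20200.2 RPM under heat. Its log2 fold change was -1.19 with a standard error of 0.82 (adjusted p = 0.689, limma), and it did not pass the test. The shorter listed names had few reads, 1 for the 20-base cme-miR168 and 4 for the 19-base gma-miR168b beside 294473 for the 21-base form, which is no measure of read length since shorter reads may have been given to the longer name.

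nta-miR168a, which ends in C in place of A, was next with 1173, 1173 and 4151 RPM in controls and 3292, 1277 and 474 RPM under heat. It did not follow ath-miR168a-5p from library to library. Its share of all 5p reads was 2.42% (95% Wilson interval 2.28% to 2.56%), 3.08% (2.96% to 3.21%) and 4.52% (4.38% to 4.67%) in controls. Under heat it was 4.97% (4.81% to 5.14%), 11.2% (10.3% to 12.0%) and 2.29% (2.12% to 2.46%), where the intervals cover counting error only. Heat replicates 2 and 3, both low in miR168, thus held the highest and the lowest share, and the groups overlapped. Its log2 fold change was -0.51 with a standard error of 0.82 (adjusted p = 0.839, limma), and the direction turned to 0.20 without heat replicate 3 and to 0.10 without control replicate 3.

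The rarer 5p names were each under 3 reads per 1000 reads of ath-miR168a-5p, and bna-miR168b varied least beside it. bna-miR168b measured 72.5, 69.6 and 122.7 RPM in controls and 85.8, 20.9 and 29.8 RPM under heat, which was 1.37 to 2.06 reads per 1000 reads of ath-miR168a-5p across the 6 libraries. mtr-miR168a measured 17.3, 20.6 and 34.4 RPM in controls and 16.4, 4.17 and 7.46 RPM under heat, without overlap between the groups, at 0.261 to 0.561 per 1000. osa-miR168b measured 19.5, 15.7 and 34.4 RPM in controls and 24.1, 10.4 and 8.13 RPM under heat, at 0.384 to 1.03 per 1000. osa-miR168a-5p measured 27.1, 26.5 and 52.8 RPM in controls and 35.7, 0 and 8.81 RPM under heat. The 0 in heat replicate 2 allows up to 6.26 RPM, the value of 3 reads there. The log2 fold changes of these 4 names ran from -2.28 to -0.74 and none passed the test. aqc-miR168, the last 5p name, had 6 reads in all.

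Of the 3p strands, sly-miR168a-3p was the most abundant, with 234, 230 and 439 RPM in controls and 209, 29.2 and 60.3 RPM under heat, and every heat library lay below every control. Its log2 fold change was -1.98 with a standard error of 0.75 (adjusted p = 0.510, limma). bra-miR168a-3p measured 34.6, 82.9 and 50.5 RPM in controls and 29.9, 2.09 and 8.13 RPM under heat, also without overlap, where the 2.09 RPM of heat replicate 2 was a single read. Its log2 fold change was -2.49 with a standard error of 0.89 (adjusted p = 0.482, limma). Without control replicate 2, which held 58.5% of its reads, it was -2.17 (unadjusted p = 0.113, limma). In limma both passed the study's threshold of an unadjusted p under 0.05 with more than a 2-fold change, and neither held after adjustment over all 1597 names. The study applied that threshold to edgeR. In edgeR run here on the recovered reads neither passed it. The log2 fold changes were -1.20 for sly-miR168a-3p (adjusted p = 0.601) and -1.58 for bra-miR168a-3p (adjusted p = 0.500). This run is not the study's own and did not give its counts over all names. Per clean read heat replicate 1 lay above control replicate 1 for both names, as it did for mtr-miR168a. bdi-miR168-3p, which differs from bra-miR168a-3p by U10C and U12C, measured 7.58, 10.3 and 11.5 RPM in controls and 20.2, 8.35 and 6.78 RPM under heat, with overlap and a log2 fold change of 0.12 (adjusted p = 0.970, limma). The other 4 names of this arm had 3 to 32 reads each.

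Ratios within a library do not depend on its total, and those of some names differed between the groups. sly-miR168a-3p stood at 4.95, 6.26 and 5.03 reads per 1000 reads of ath-miR168a-5p in controls and at 3.33, 2.88 and 2.99 under heat, so that heat replicate 1 here lay with the other heat libraries. aau-miR168 stood at 520, 569 and 446 per 1000 in controls and at 437, 194 and 281 under heat, and bra-miR168a-3p at 0.733, 2.26 and 0.578 against 0.476, 0.206 and 0.403. Of the 9 other miR168 names with at least 50 reads, 4 had a ratio to ath-miR168a-5p that was lower in every heat library than in every control (these 3 and osa-miR168a-5p), and 1, bdi-miR168-3p, had a higher one, at 0.160, 0.280 and 0.131 in controls and 0.323, 0.824 and 0.336 under heat. Over the 1168 other names with at least 50 reads the same held for 2.40% in the lower and 7.28% in the higher direction. Most of these names are of other families, so the shares are no test of the miR168 names. The gap of osa-miR168a-5p was narrow, at 0.568 in heat replicate 1 (37 reads) against 0.572 in control replicate 1 (25 reads). In heat replicate 2 the ratio of bdi-miR168-3p rested on 4 reads and that of bra-miR168a-3p on 1 read. The ratio was looked at after the levels were seen and is given as a description. Between sly-miR168a-3p and aau-miR168, whose sequences are complementary, the ratio was 7.62 to 14.9 per 1000 and overlapped between the groups.

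**Figure D2:**
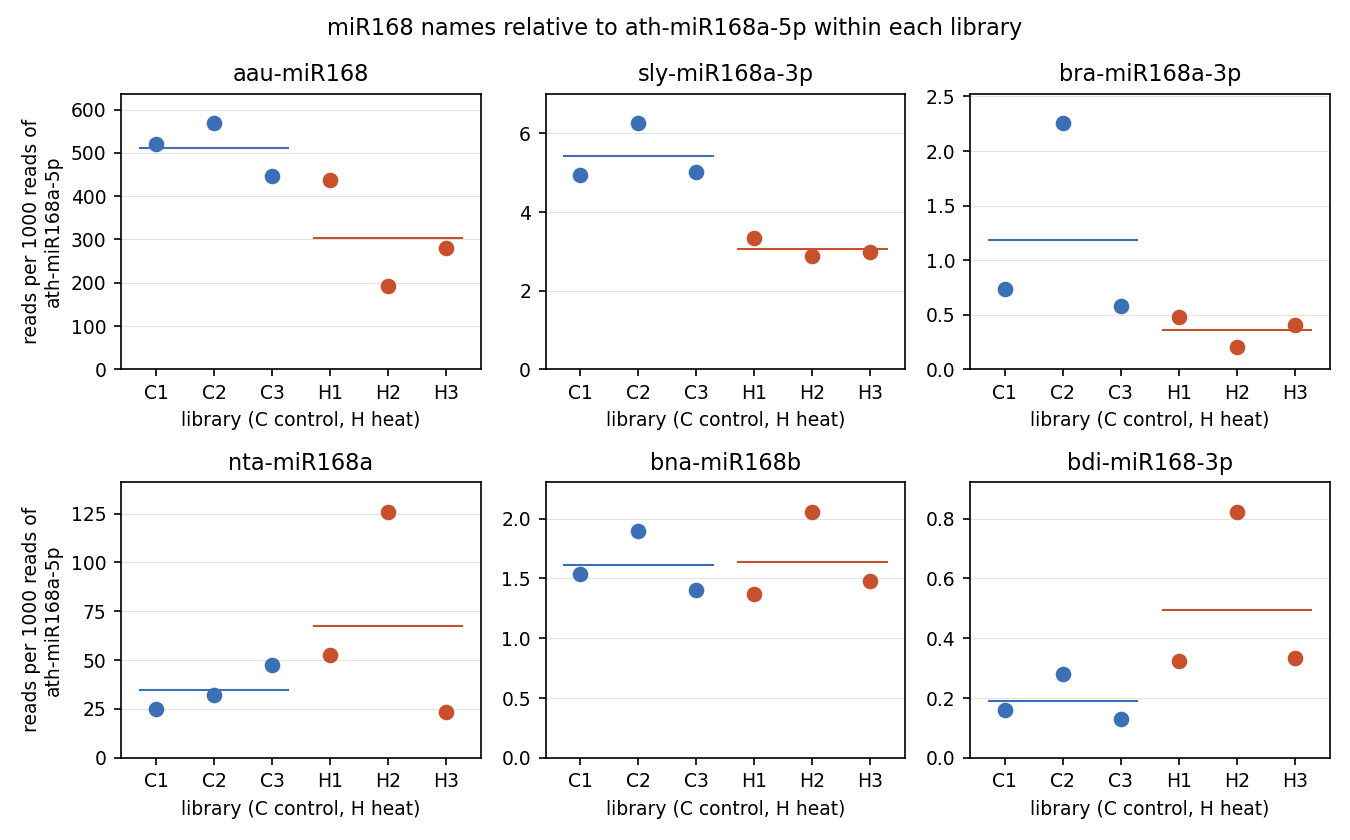
Reads of 6 miR168 names per 1000 reads of ath-miR168a-5p in each small RNA library (linear axes from 0), with 1 point per library and a line at the mean of each group of 3. aau-miR168, sly-miR168a-3p and bra-miR168a-3p lie lower in every heat library, bna-miR168b stays between 1.37 and 2.06, and nta-miR168a reaches 126 in heat replicate 2 only.

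miR162, the miRNA set against DCL1 in Arabidopsis, was found in quantity in a single library. The 6 names summed to 20.6, 747 and 6.88 RPM in controls and to 7.71, 10.4 and 9.49 RPM under heat, from 19, 1523 and 6 reads and from 8, 5 and 14 reads. Control replicate 2 thus held 93.1% of the summed RPM and lay 36.3 times above the next library. It had 80.2 times the miR162 reads of control replicate 1 but 2.21 times its depth. The log2 ratio of the group means was -4.81 with all libraries and -0.58 without control replicate 2, where the control values of 20.6 and 6.88 RPM lay on both sides of the heat values.

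The leading name, ath-miR162a-3p, had 11, 1112 and 0 reads in controls and 0, 0 and 2 reads under heat, which was 11.9, 545 and 0 RPM against 0, 0 and 1.36 RPM. bdi-miR162 had 2, 321 and 3 reads against 2, 4 and 2 reads, or 2.17, 157 and 3.44 RPM against 1.93, 8.35 and 1.36 RPM. zma-miR162-3p, the same sequence as ath-miR162a-3p without the last base, had 65 reads (31.9 RPM) in control replicate 2 and 0 in the other 5 libraries, where the value of 3 reads is 2.03 to 6.26 RPM. The remaining names, osa-miR162b, cln-miR162 and bna-miR162a, had 13, 26 and 12 reads, and control replicate 2 held 0 reads of bna-miR162a. Within control replicate 2, ath-miR162a-3p made up 73.0% of its miR162 reads (95% Wilson interval 70.7% to 75.2%) and bdi-miR162 21.1% (19.1% to 23.2%). limma gave log2 fold changes of -3.85 (standard error 1.96, adjusted p = 0.568) for ath-miR162a-3p and -1.70 (standard error 1.47, adjusted p = 0.735) for bdi-miR162. Without control replicate 2 they were -1.43 (standard error 1.23) and 0.10 (standard error 0.77). For zma-miR162-3p limma gave -1.68 (standard error 1.26), a value that depends on the pseudocount since 5 libraries are at 0.

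csi-miR1515, of the family that acts on DCL2 in soybean, had the same profile. It had 2, 245 and 2 reads in controls and 2, 2 and 3 reads under heat, which was 2.17, 120 and 2.29 RPM against 1.93, 4.17 and 2.03 RPM. Control replicate 2 held 90.5% of its RPM, and the other 5 libraries were at or under 3 reads, so no difference between the groups was measurable without that library. Its log2 fold change was -1.59 with a standard error of 1.39 (adjusted p = 0.735, limma), and 0.15 (standard error 0.44) without control replicate 2.

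miR838, tied to DCL1 through its intron in Arabidopsis, was low in all libraries. Its 3 names summed to 74.7, 127 and 59.6 RPM in controls and to 34.7, 100.1 and 63.7 RPM under heat, with means of 87.1 ± 35.4 and 66.2 ± 32.8 RPM (SD, n = 3) and overlap between the groups. aly-miR838-3p measured 45.5, 48.1 and 25.2 RPM against 20.2, 41.7 and 17.6 RPM, ath-miR838 18.4, 32.4 and 28.7 RPM against 10.6, 35.5 and 27.8 RPM, and aly-miR838-5p 10.8, 46.6 and 5.74 RPM against 3.86, 22.9 and 18.3 RPM. Control replicate 2 was the highest control for each of the 3, and heat replicate 1 was the lowest heat library for both ath-miR838 and aly-miR838-5p. The log2 fold changes lay between -0.61 and -0.22 with standard errors of 0.61 to 0.97, and the smallest adjusted p was 0.764 (limma).

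**Figure D3:**
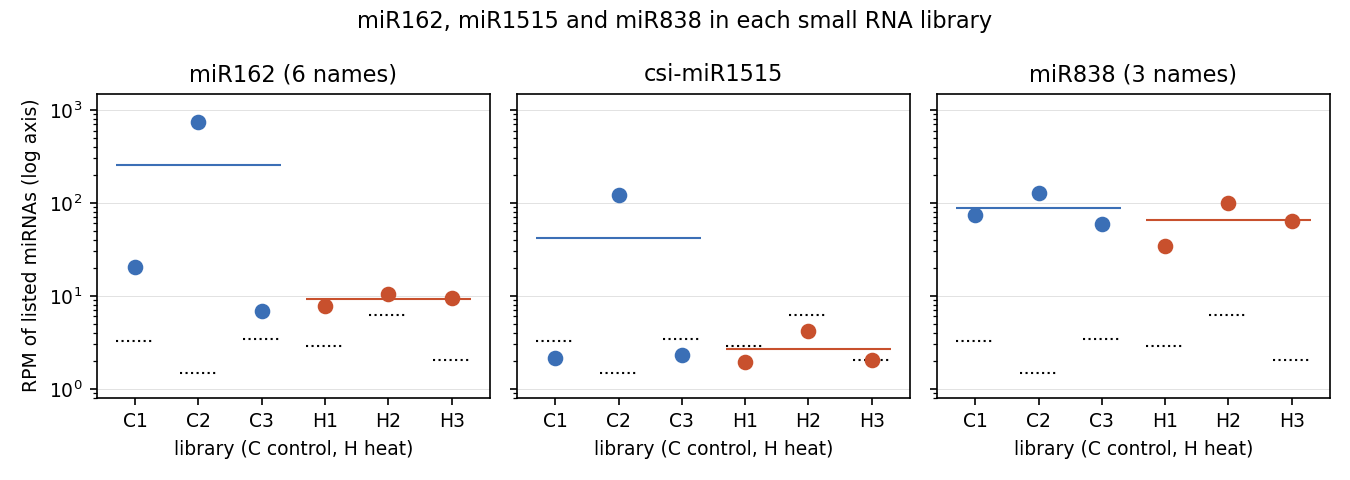
RPM (log axis) of the summed miR162 names, of csi-miR1515 and of the summed miR838 names in each small RNA library, with 1 point per library, a solid line at the mean of each group of 3 and a dotted mark at the RPM of 3 reads in that library. miR162 at 747 RPM and csi-miR1515 at 120 RPM stand out in control replicate 2 only, while miR838 lies between 34.7 and 127 RPM in all libraries.

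Over all members, limma on log2(RPM + 1) called 2 of 27 names lower under heat (7.41%), sly-miR168a-3p and bra-miR168a-3p, where 7.14% of the 1597 listed names were called lower. It called 0 of 27 higher, where 2.13% of all names were, and no further member had an unadjusted p under 0.05. The members' share of calls was therefore close to that of all names. The median log2 fold change was -0.74 over the members and -0.37 over all names. Rescaling by the median ratio raised the latter by 0.15 and changed the split over all names from 34 higher and 114 lower to 57 higher and 76 lower, and limma then called 0 members. DESeq2, and edgeR with its expression filter, also called 0, but neither tested every member. DESeq2 gave no p-value for ath-miR162a-3p, bdi-miR162 and csi-miR1515, with log2 fold changes of -7.96, -3.64 and -3.66. The edgeR filter kept 13 members and left out these names and zma-miR162-3p. With all libraries 0 members passed an adjusted p under 0.05 with more than a 2-fold change in limma, edgeR or DESeq2. Of all names 1 did so in limma, 0 did in edgeR, and 10 higher and 14 lower names did in DESeq2. The RPM values of 4 members (14.8%), all of them miR168, lay lower in every heat library than in every control, namely sly-miR168a-3p, bra-miR168a-3p, mtr-miR168a and ath-miR168b-3p, the last with 32 reads. No member lay higher. Over all names these shares were 9.89% and 4.51%. Scaled to clean reads, 0 members lay lower and 0 higher in every heat library, against 7.83% and 4.01% of all names, so that the separation of these 4 names holds only relative to the listed miRNAs.

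Which family was called differed between tools. edgeR on the recovered reads called 4 members lower (14.8%, against 9.20% of all names), and these were ath-miR162a-3p, bdi-miR162, zma-miR162-3p and csi-miR1515, the names held by control replicate 2, with adjusted p of 0.396 for each. Without that library edgeR called 0 members, against 4.26% of all names called lower. Without control replicate 1 it called the same 4 names lower and bna-miR162a, with 12 reads, higher (adjusted p = 0.326). Of all names it then called 11.9% lower and 3.01% higher. Without control replicate 3 it called the same 4 names (14.8%, against 14.3% of all names). There ath-miR162a-3p had an adjusted p = 0.0303 and was among 26 names called lower at an adjusted p under 0.05. Without heat replicate 2 or 3 edgeR called ath-miR162a-3p alone, against 3.44% and 3.26% of all names called lower. It called no miR168 name with all libraries. With heat replicate 1 left out, limma called 7 members lower (25.9%, against 7.14% of all names), all of them miR168 names (ath-miR168a-5p, bna-miR168b, mtr-miR168a, osa-miR168a-5p, aau-miR168, sly-miR168a-3p and bra-miR168a-3p), with the smallest adjusted p at 0.240. Leaving out that library was chosen with its values known, so this count shows how much rests on heat replicate 1 and is no further support for a change.

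**Figure D4:**
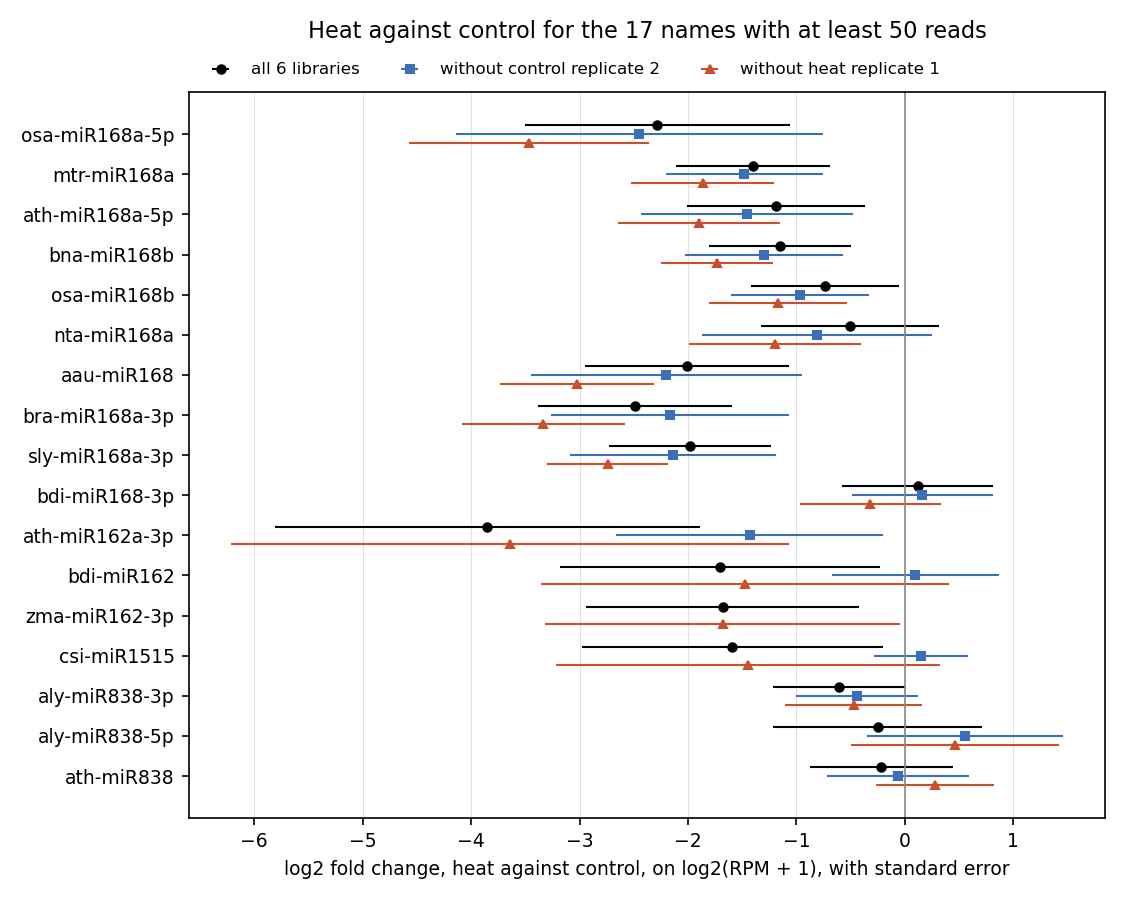
Log2 fold change of heat against control on log2(RPM + 1), with its standard error from limma, for the 17 names with at least 50 reads, with all 6 libraries, without control replicate 2 and without heat replicate 1. The miR162 and miR1515 names move to or near 0 without control replicate 2 except ath-miR162a-3p (-1.43), the miR168 names except bdi-miR168-3p move further below 0 without heat replicate 1, and zma-miR162-3p is not plotted without control replicate 2, since the other libraries are at 0.

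Another family of the machinery, miR390, which AGO7 binds to start the making of trans-acting siRNAs, was taken as a comparison. limma called 0 of 14 miR390 names in either direction, with 0 at an unadjusted p under 0.05, and edgeR and DESeq2 called 0. Of all names limma called 7.14% lower and 2.13% higher. gma-miR390b-5p (43 reads) and pta-miR390 (19 reads) lay lower in every heat library than in every control, as did 9.89% of all names. No miR390 name lay higher in every heat library. The leading name, ath-miR390a-5p, measured 4158, 2195 and 3191 RPM in controls and 6575, 2449 and 1130 RPM under heat, with overlap between the groups. Heat replicate 1 was here the highest of all libraries. No miR403 name, the family against AGO2 in Arabidopsis, was among those listed.

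In the RNA-seq libraries, 11 unigenes carried a term naming silencing, miRNA or siRNA in the study's annotation of predicted miRNA targets. Only terms whose unigenes were listed in full were used, so the list is not complete. TRINITY_DN70219_c2_g1 and TRINITY_DN73532_c1_g1 carried only general terms of gene silencing, with no mention of RNA. Of the 11, 9 had a mean of at least 1 TPM. limma on log2(TPM + 1) called 0 of these 9 at an adjusted p under 0.05 with more than a 2-fold change, while it called 10.1% of all 68978 such unigenes. After rescaling by the median ratio the counts over all unigenes were 2796 higher and 4148 lower, against 4142 and 2793 before it, and 0 of the 9 were called. 1 of the 9 had an unadjusted p under 0.05, TRINITY_DN71703_c2_g3, annotated to the negative regulation of posttranscriptional gene silencing. It measured 1.40, 2.28 and 1.86 TPM in controls and 4.15, 2.98 and 4.32 TPM under heat, without overlap, and limma gave 0.76 ± 0.28 (log2 fold change and its standard error, adjusted p = 0.107). TRINITY_DN71213_c0_g1, annotated to miRNA catabolism, also did not overlap, with 5.62, 5.98 and 4.99 TPM against 7.82, 7.47 and 8.33 TPM (adjusted p = 0.249, limma). It is named here after its values were seen. Of all unigenes tested, 22.0% lay higher in every heat library than in every control.

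The most abundant of the list were TRINITY_DN72023_c0_g1, also annotated to miRNA catabolism, with 8.00, 9.97 and 9.65 TPM in controls and 15.1, 9.09 and 16.2 TPM under heat, and TRINITY_DN49683_c0_g1, annotated to the control of silencing by miRNAs, with 11.1, 6.32 and 14.3 TPM against 7.82, 8.31 and 5.72 TPM. Both overlapped between the groups. None of the unigenes was identified here as DCL1, AGO1 or DCL2, so the known targets were not analysed.

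Of the members, csi-miR1515 alone had predicted targets among the pairs at hand, a list that is not complete. TRINITY_DN61304_c1_g1 measured 12.9, 15.8 and 11.8 TPM in controls and 18.8, 6.09 and 11.8 TPM under heat. TRINITY_DN61859_c0_g1 measured 3.80, 0.299 and 0.326 TPM against 0.436, 1.64 and 0.708 TPM. TRINITY_DN77702_c0_g1 was listed at 0 in the controls and at 0.226, 0.460 and 0.414 TPM under heat, under the filter for the test. The 2 that were tested did not pass (smallest adjusted p = 0.694, limma), and whether the RNA-seq libraries hold the same leaves as the small RNA libraries is not known.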

How the data were processed

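For the RPM values, the authors used cutadapt to cut adapters and keep lengths of 17 to 35 bases, then trimmomatic for quality. They discarded reads that BLASTN placed in Rfam, compared the others with plant miRNAs of miRBase, and deposited RPM of the reads assigned to 1597 names. For the TPM values, the authors assembled 208217 unigenes with Trinity, quantified them with Salmon and deposited TPM, so the depth of these libraries cannot be read from the table. Versions and the rule for matching reads to names are not given in the sources used here. All 6 columns of each table were used and no other column held per-sample values.

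Dividing each RPM column by the value of 1 read gave whole reads for 9582 of 9582 values within 0.01 reads, and edgeR on these reads called 51 names higher and 147 lower. The main test was limma 3.58.1 (lmFit, eBayes with trend) in R 4.3.3 on log2(RPM + 1) over all names, and a name was called where the unadjusted p was below 0.05 and the change more than 2-fold, the study's thresholds, with Benjamini-Hochberg adjusted p beside it. A fold change on that scale understates the change of low names. Unigenes were tested on log2(TPM + 1) where the mean was at least 1 TPM, at an adjusted p under 0.05. Family sums are descriptions with no test. With 3 libraries in each group, p-values set the group difference against the spread between these libraries. In limma that spread is moderated by the spread of all names.

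A miR168 name joined the 5p or 3p strand by fewest mismatches, at most 4, in an ungapped alignment. Named with values were the 17 members with at least 50 reads in all and any member called, and of the unigenes those passing their test, the 2 of highest mean and the predicted targets. The other 10 members are given by reads. The members and lists were chosen with earlier results of these data known. Alternatives were pseudocounts of 0.1 and 5, a mean of at least 5 RPM, other totals (median ratio, clean reads from the study's read statistics, the total without the 10 highest names), robust eBayes, edgeR 4.0.16 with TMM with and without its expression filter, DESeq2 1.42.0, other thresholds, the replicate number as a block, and the omission of single libraries. The procedures were tested on simulated data. Python 3.11.15 was used for sums and figures.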

Additional observations from a re-analysis of the deposited data

How the results depend on the processing

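The direction of the miR168 sums held under every total and every library left out, but their size did not. Leaving out 1 library gave log2 ratios of -1.89 to -0.40 for the 5p sum, -2.63 to -1.12 for the 3p sum and -2.88 to -0.76 for aau-miR168, the lowest each without heat replicate 1. For miR162 they ran from -5.38 to -0.58, and for csi-miR1515 from -4.50 to 0.28, the highest each without control replicate 2, where csi-miR1515 rests on 2 or 3 reads a library. The miR838 sum stayed within its spread in all 9 alternatives, with a log2 ratio of -0.40 with all libraries and -0.02 without control replicate 2. Members called lower numbered 2 by limma, 0 after median-ratio scaling, 1 per clean read, 1 with the total without the 10 highest names, 4 by edgeR, 0 by edgeR with its expression filter, 0 by DESeq2 and 0 at an adjusted p under 0.05. Over all names the shares called lower were 7.14% by limma, 4.76% after median-ratio scaling, 5.26% per clean read and 4.63% with that total. They were 9.2% by edgeR, 8.5% with its filter, 5.76% by DESeq2 and 0% at an adjusted p under 0.05. The edgeR filter left 13 members to test, and DESeq2 gave no p-value for ath-miR162a-3p, bdi-miR162 and csi-miR1515. With 1 library left out limma called 0 (without control replicate 2, heat replicate 2 or heat replicate 3) to 7 (without heat replicate 1). Of all names it then called 3.94% (without heat replicate 2) to 10.7% (without control replicate 3) lower, and 7.14% without heat replicate 1. By edgeR, chosen after seeing the data, they numbered 0 without control replicate 2, 1 without heat replicate 2 or heat replicate 3, 4 without control replicate 1 or control replicate 3 and 7 without heat replicate 1, and members called higher 0 to 1 (bna-miR162a without control replicate 1). With a library left out miR390 calls were 0 to 1 by limma and 0 to 2 by edgeR. Unigene and target calls stayed at 0 throughout.

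Of 315 recomputed log2 fold changes of named miRNAs, 13 changed sign, none of them called. ath-miR838 was 0.01 by median ratio, 0.06 with the total without the 10 highest names and 0.02 by DESeq2, and aly-miR838-5p was 0.02 with that total. With a library left out aly-miR838-5p ran from -0.86 to 0.55, ath-miR838 from -0.55 to 0.27, bdi-miR162 from -2.73 to 0.10, bdi-miR168-3p from -0.32 to 0.40, csi-miR1515 from -2.48 to 0.15 and nta-miR168a from -1.20 to 0.20. zma-miR162-3p, at 0 in every other library, is not counted without control replicate 2. Nor are ath-miR162a-3p, bdi-miR162 and csi-miR1515 counted in DESeq2, which gave them no p-value. In edgeR with its expression filter these names and zma-miR162-3p were left out. Of the other changes of call, 21 were losses of sly-miR168a-3p or bra-miR168a-3p and 13 were gains.

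Same-numbered control and heat libraries showed no clear joint deviation (correlations of -0.0795, 0.0954 and -0.0933 across miRNAs, and -0.135, -0.0562 and 0.145 across unigenes). Differently numbered libraries gave -0.151 to 0.206 across miRNAs and -0.156 to 0.253 across unigenes. The numbers thus gave no sign of pairing, though deviations from a mean of 3 libraries cannot exclude it. With a replicate block 3 members were called lower, aau-miR168 being added with a log2 fold change of -2.01 (adjusted p = 0.613, limma), 0 higher, and 0 unigenes of the list. Of all names 6.07% were called lower and 1.75% higher with the block.

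Depth limits the low names. At 3 reads a library the floor was 1.47 to 6.26 RPM, and the 10 members under 50 reads, miR162 outside control replicate 2 and csi-miR1515 rest on few reads.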

Other observations

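Of the 55 names that control replicate 2 held almost alone, 9 were miR396, 6 were miR169, 3 were miR162, 2 were miR398 and 2 were miR5741, and of the names with at least 50 reads 34 in all were miR396. gma-miR396e had 442657 reads there and 2326, 1405, 775, 2896 and 452 reads in control replicates 1 and 3 and heat replicates 1 to 3. mdm-miR827, of the family tied to phosphate supply, had 10930 reads there and 3 to 17 elsewhere. osa-miR398b and ath-miR408-3p, of families tied to copper supply, had 4523 and 2245 reads there and 0 to 86 and 0 to 50 elsewhere. gma-miR390a-3p, of the AGO7 family, measured 75.0 RPM there and 0 to 3.39 RPM elsewhere. Control replicate 1 was the next highest library for ath-miR162a-3p (11 reads), ath-miR408-3p (50 reads) and cme-miR530b (39 reads, beside 3152 in control replicate 2). These values are given with no explanation, and their source was not tested.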
